A study of Drosophila melanogaster with 15 samples.

Results

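The transcripts of 10 genes that build the contractile unit of muscle were followed in the midgut of *Drosophila melanogaster* larvae, and the question was whether they changed together between stages. The genes are *Mhc*, *Mlc1*, *Mlc2*, *Tm1*, *Tm2*, *up*, *wupA*, *Zasp52*, *sls* and *bt*, and each matched by its symbol 1 of the 12133 entries of the expression table. All 10 passed the filter for low values, which kept the 9787 entries with at least 0.5 CPM (reads of an entry scaled to a common library total) in at least 1 library. Midguts came from larvae of the *w1118* strain, a white-eyed laboratory background, reared at 25 °C on a diet of yeast, with the sexes not separated. They were dissected early in the second larval instar (early L2, day 2, 60 midguts per library), late in that instar (late L2, day 3, 30 midguts) or early in the following one (early L3, day 4, 10 midguts), with 5 biological replicates per stage and 15 libraries of polyadenylated RNA in all. Stage, age and the number of pooled midguts cannot be told apart in this design.

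The midgut epithelium is wrapped in a lattice of circular and longitudinal visceral muscle fibres that move food along the tube. Unlike the smooth muscle of the vertebrate gut, these fibres are striated: myosin thick filaments slide along actin thin filaments that are anchored in Z-discs, and calcium acts through troponin and tropomyosin on the thin filament. An RNA extract of whole midguts therefore mixes muscle, epithelial, endocrine, tracheal and other transcripts, and in such bulk samples fewer muscle cells and less muscle RNA per cell cannot be told apart.

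The genes lie on 6 chromosomes or arms (coordinates of the BDGP6.54 annotation). Those of the thick filament are *Mhc*, the myosin heavy chain (2L, 16766566 to 16788766), and the alkali and regulatory light chains *Mlc1* (3R, 27657078 to 27660177) and *Mlc2* (3R, 30171438 to 30174551). The thin filament genes encode the tropomyosins *Tm1* (3R, 15278220 to 15308779) and *Tm2* (3R, 15310193 to 15315197), troponin T (*up*, X, 13593474 to 13602578) and troponin I (*wupA*, X, 18105568 to 18116922). *Tm1* and *Tm2* are related neighbours, and how reads shared between them were assigned cannot be seen in the table. *Zasp52* (2R, 15762565 to 15817004) encodes a PDZ-LIM protein of the Z-disc. *sls* (3L, 2039681 to 2115611) and *bt* (chromosome 4, 724400 to 776474) encode the giant elastic proteins Sallimus and projectin, relatives of titin that tie the Z-disc to the thick filament. Expressed genes on the opposite strand overlap *Tm1* (*l(3)neo43*, mean 7.91 CPM), *Zasp52* (*tun*, 6.76 CPM) and *sls* (*asRNA:CR42860*, 1.72 CPM), each far below its partner.

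Library totals ranged from 23981806 to 33902298 reads, and the lowest number of reads for any sarcomere gene in any library was 1878, so counting error was small beside the spread between replicates. Values are CPM with mean ± SD over n = 5 replicates, and fold changes are on the scale of log2(CPM + 0.5). The words rose and fell are kept for transcripts with a limma p under 0.05 after Benjamini-Hochberg adjustment over the 9787 entries and a log2 fold change at or beyond 0.5 in size. CPM depends on the total of each library. When libraries were scaled to median-ratio size factors instead, the median log2 fold change of all entries moved by 0.13 upwards in both comparisons with early L3 and by 0.00 in late L2 versus early L2. Quantile normalization, which gives every library the same distribution of values, moved it upwards by 0.17 into early L3, by 0.19 over the full span and by 0.00 in late L2 versus early L2. Changes are therefore also given relative to the median of all entries.

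*Mhc*, the most abundant of the 10 by CPM, stood at 2053, 1539.7, 1769.5, 1579.8 and 1893 CPM in early L2 replicates 1 to 5, at 1493, 1427, 1383, 1185 and 1244 CPM in late L2 and at 1289.9, 1123, 1332, 1247 and 1082 CPM in early L3. Each early L2 library lay above each late L2 library, while late L2 and early L3 overlapped. *Mhc* was lower in late L2 than in early L2 by a log2 fold change of -0.39 ± 0.09 (SE, adjusted p = 0.00474), short of the minimum fold change, and the further difference to early L3 was -0.15 ± 0.09 (adjusted p = 0.181). Over the full span from early L2 to early L3 it fell, its mean going from 1767 ± 215 to 1215 ± 108 CPM (-0.54 on the log2 scale, with adjusted p = 8.4e-05).

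Both myosin light chains were higher on average in early L2, but with a wide spread there. *Mlc1* stood at 412, 253, 363, 296 and 329 CPM in early L2 replicates 1 to 5, at 278, 276, 269.8, 241 and 272 CPM in late L2 and at 250.2, 219.9, 257, 239 and 228 CPM in early L3. *Mlc2* stood at 990.1, 623, 863, 753 and 842 CPM in early L2, at 695, 694, 685, 602 and 661 CPM in late L2 and at 609, 566, 655, 613 and 579 CPM in early L3. For each light chain the second early L2 library lay inside the range of the later stages, and the other 4 lay above every later library. In late L2 versus early L2 the log2 fold change was -0.29 for *Mlc1* (adjusted p = 0.0445) and -0.27 for *Mlc2* (adjusted p = 0.0436), and neither passed the minimum fold change. Over the full span they differed by -0.45 (adjusted p = 0.001) and -0.41 (adjusted p = 0.00118), again short of it.

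On the thin filament, the troponin T gene *up* stood at 708, 432, 609, 508 and 586 CPM in early L2 replicates 1 to 5, at 467, 459.6, 450.4, 407 and 427 CPM in late L2 and at 385, 362, 421, 392 and 369 CPM in early L3. All early L2 values were above all early L3 values, and the late L2 range lay across the lowest early L2 library. *up* was lower in late L2 than in early L2 (log2 fold change -0.34 ± 0.10 SE, adjusted p = 0.0177) and fell between early L2 and early L3 (-0.54, adjusted p = 0.0002).

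*Tm2*, which makes a muscle tropomyosin, stood at 426, 252, 360.5, 313 and 349.9 CPM in early L2, at 285, 290.5, 269, 244 and 269 CPM in late L2 and at 243, 210.2, 250.0, 242 and 222 CPM in early L3. The early L2 libraries were all above the early L3 libraries, by 1.64 CPM for the closest pair. It fell between early L2 and early L3 (log2 fold change -0.52, adjusted p = 0.000451), after a difference of -0.31 during L2 (adjusted p = 0.0435). Troponin I, from *wupA*, stood at 345, 196, 295, 242 and 276 CPM in early L2, at 229.9, 223, 219, 207 and 221 CPM in late L2 and at 208, 198, 222, 206 and 197 CPM in early L3. Its second early L2 library was the lowest of all 15, and the stages overlapped. *wupA* differed by -0.28 during L2 (adjusted p = 0.0695) and by -0.37 over the full span (adjusted p = 0.00688), so that it did not pass the minimum fold change.

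*Tm1* passed no test under CPM. Besides muscle tropomyosin, this gene encodes cytoplasmic tropomyosins that are used outside muscle, and the table holds 1 value for all of its transcripts. It stood at 789, 641, 735, 660.1 and 738 CPM in early L2, at 703, 676, 697, 707 and 695 CPM in late L2 and at 712, 673, 728, 698 and 693 CPM in early L3. The 3 stages overlapped fully, with means of 713 ± 61.0, 696 ± 12.2 and 701 ± 21.0 CPM. Its log2 fold changes were -0.03 ± 0.05 (SE, adjusted p = 0.719) in late L2 versus early L2 and 0.01 ± 0.05 (adjusted p = 0.883) in early L3 versus late L2. With median-ratio scaling *Tm1* was higher in early L3 than in early L2 (log2 fold change 0.13, adjusted p = 0.0242), so its direction over the full span depends on the scaling.

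The Z-disc gene *Zasp52* had the largest change of the 10 during L2. It stood at 114.9, 108, 122, 117 and 116 CPM in early L2 replicates 1 to 5, at 75.7, 79.8, 80.4, 64.6 and 68.4 CPM in late L2 and at 79.4, 80.1, 71.9, 70.9 and 67.4 CPM in early L3. Every early L2 library exceeded every later library by at least 27.5 CPM, and late L2 and early L3 covered the same range. *Zasp52* fell during L2, its mean dropping from 116 ± 5.16 to 73.8 ± 7.01 CPM (on the log2 scale -0.65 ± 0.07 SE, adjusted p = 7.64e-06), and stood at 73.9 ± 5.55 CPM in early L3 (0.00 ± 0.07, adjusted p = 0.958). The change into early L3 exceeded the change during L2 by 0.65 (adjusted p = 0.000593), a call made upwards in 6.5% of all entries. For the other 9 genes this difference was between 0.04 and 0.24, with adjusted p between 0.244 and 0.751.

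The giant elastic proteins had a pattern of their own among the early L2 replicates. *bt* stood at 613, 453, 413, 418 and 566 CPM in early L2, at 409, 432, 392, 364 and 353 CPM in late L2 and at 381, 319, 379, 356 and 278 CPM in early L3. *sls* stood at 285, 204, 210.3, 208 and 271 CPM in early L2, at 200.5, 208, 201, 190.1 and 189 CPM in late L2 and at 207, 177, 197, 191 and 159 CPM in early L3. For both, early L2 replicates 1 and 5 were above the other 3, the lowest of which lay within the late L2 range. *bt* did not overlap between early L2 and early L3 and fell over that span (log2 fold change -0.51 ± 0.12 SE, adjusted p = 0.00108), whereas *sls* overlapped and differed by -0.33 ± 0.10 (adjusted p = 0.00665).

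**Figure D1:**
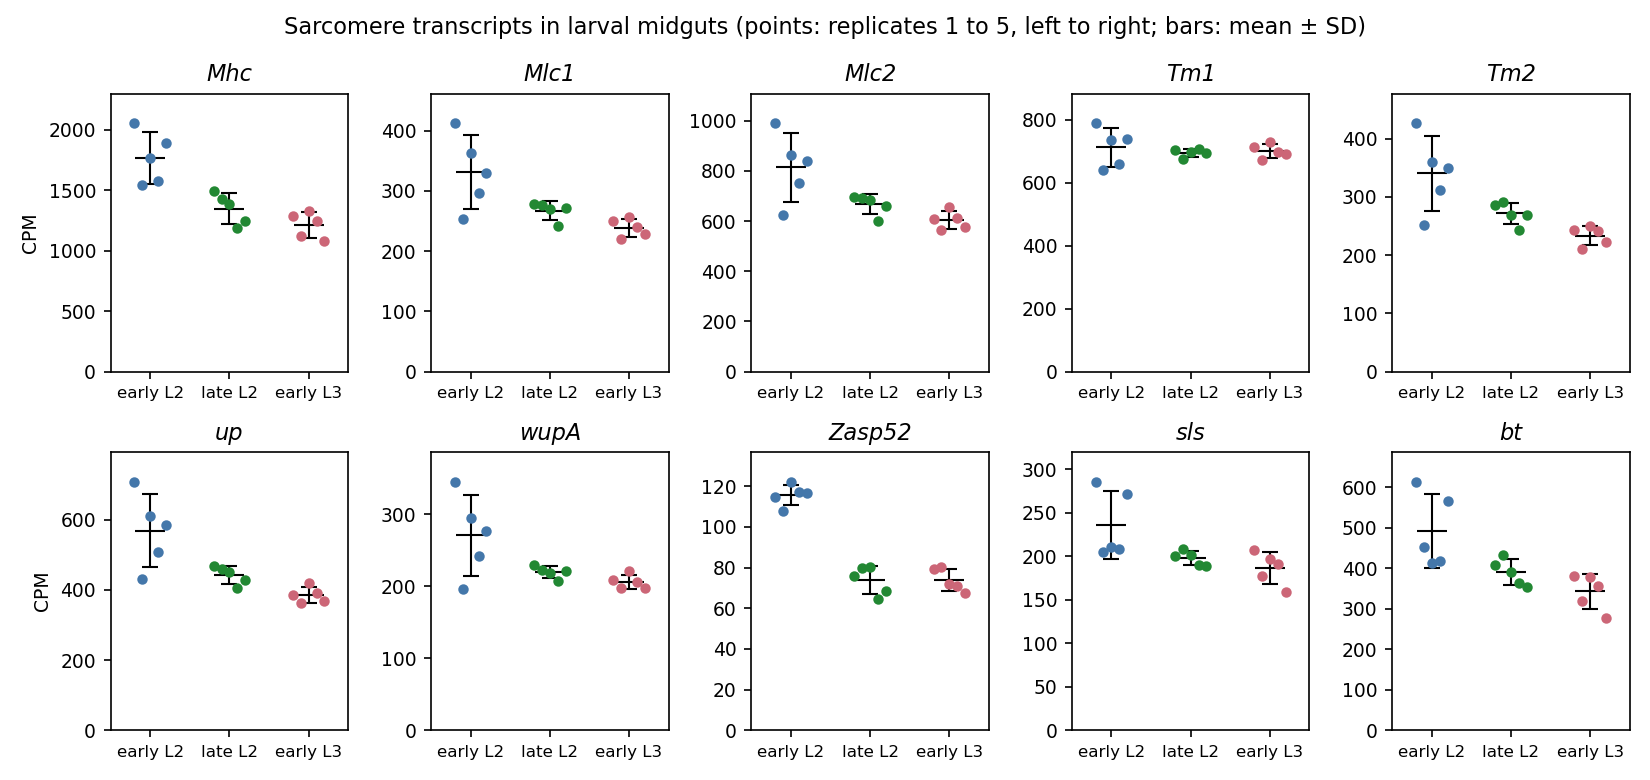
CPM (vertical axes, from 0) of the 10 sarcomere genes in each library of early L2, late L2 and early L3; points are replicates 1 to 5 from left to right and bars the mean ± SD. *Zasp52* dropped from 116 to 73.8 CPM between early and late L2, *Tm1* stayed near 700.7 CPM, and most others had their widest spread in early L2.

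Counted over the set, late L2 differed from early L2 downwards. The log2 fold change was below 0 for all 10 genes, from -0.65 for *Zasp52* to -0.03 for *Tm1*, with a median of -0.30 beside 0.01 over all 9787 entries. Of the 10, only *Zasp52* fell by limma, where 6.51% of all entries fell. With limma 0 rose, where 3.38% of all entries did, and 0 were higher at an unadjusted p under 0.05, and edgeR and DESeq2 on the recovered reads likewise called *Zasp52* alone. Without the minimum fold change, 6 of the 10 (*Mhc*, *Mlc1*, *Mlc2*, *Tm2*, *up* and *Zasp52*) were lower at an adjusted p under 0.05, as were 12.8% of all entries. The late L2 values lay wholly below the early L2 values for *Mhc* and *Zasp52*, 2 of the 10, against 8.68% of all entries. The adjusted p of *Mlc1*, *Mlc2* and *Tm2* stood close to the threshold, between 0.0435 and 0.0445. These values became 0.110, 0.112 and 0.109, and that of *up* became 0.0513, when a pair of libraries doubted in earlier results of these data was left out, namely replicate 4 of late L2 with replicate 1 of early L3.

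Between late L2 and early L3 no sarcomere gene passed the test, and their place relative to all entries depended on the scaling. With limma 0 of the 10 rose or fell, 0 had an unadjusted p under 0.05, and edgeR and DESeq2 on the recovered reads also called 0. The limma fit pools the spread of all 3 stages. The median SD of the 10 on the log2 scale was 0.255 in early L2, against 0.0854 and 0.0983 in these 2 stages. Over all limma, edgeR and DESeq2 settings run, the lowest adjusted p was 0.00943 for *up*, 0.0103 for *Tm2*, 0.0284 for *Mlc1*, 0.0473 for *Mlc2* and 0.00166 for *Tm1*. None of these settings reached the minimum fold change. The groups overlapped for each gene, whereas 28.3% of all entries lay wholly lower in early L3. Of all entries 18.7% fell and 6.45% rose in this comparison, and of those called 25.7% rose under CPM, 43.3% under median-ratio scaling and 47.7% after quantile normalization. The median log2 fold change of the 10 was -0.15, beside -0.11 over all entries. Relative to the median of all entries the genes therefore lay under CPM between -0.11 (*Tm2*) and 0.12 (*Tm1*), with 6 of 10 below it and a median of -0.04. With median-ratio scaling 4 of 10 had a log2 fold change below 0, in place of 8, the median was 0.00, and *Tm1* (0.16, adjusted p = 0.00969) and *Zasp52* (0.15, adjusted p = 0.0388) were higher at an adjusted p under 0.05, short of the minimum fold change. After quantile normalization all 10 lay below the median of all entries, from -0.34 to -0.01 with a median of -0.22, and *Tm2* (log2 fold change -0.26, adjusted p = 0.0355), *up* (-0.28, adjusted p = 0.0175) and *bt* (-0.27, adjusted p = 0.043) were lower at an adjusted p under 0.05, again short of it.

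Over the full span from early L2 to early L3, *Mhc*, *Tm2*, *up*, *Zasp52* and *bt* fell, 5 of the 10, where 24.3% of all entries fell, and 0 rose in limma or at an unadjusted p under 0.05, where 9.86% of all entries rose. The same 5 genes were those whose groups did not overlap, against 32.2% of all entries with early L3 wholly below early L2. At an adjusted p under 0.05 with no minimum fold change, 9 of 10 were lower, all but *Tm1*, as were 42.7% of all entries. The median log2 fold change was -0.48, beside -0.15 over all entries. Relative to that median the genes lay between -0.50 (*Zasp52*) and 0.13 (*Tm1*), with a median of -0.34 under CPM. The same median was -0.31 in late L2 versus early L2. After quantile normalization these medians were -0.56 and -0.35, so how much of the relative difference fell within L2 depends on the scaling.

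These calls lay near the minimum fold change. With median-ratio scaling the count that fell over the full span was 0 of 10, as it was with edgeR and DESeq2 on the recovered reads, with a median of -0.33 and 7 genes still lower at an adjusted p under 0.05, and *Zasp52* had a log2 fold change of -0.49. TMM scaling also gave 0, whereas after quantile normalization 6 of 10 fell, *Mlc1* (-0.53, adjusted p = 0.000172) beside the 5. Of the 9787 entries tested, 2378 (24.3%) fell over the full span under CPM, 1809 under median-ratio scaling and 1664 after quantile normalization. Of all calls in this comparison 28.9% rose under CPM, 43.2% under median-ratio scaling and 47.7% after quantile normalization. The count under CPM was 1 without early L2 replicate 1, 3 without early L3 replicate 2 or early L3 replicate 5, and 7 without early L2 replicate 2.

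**Figure D2:**
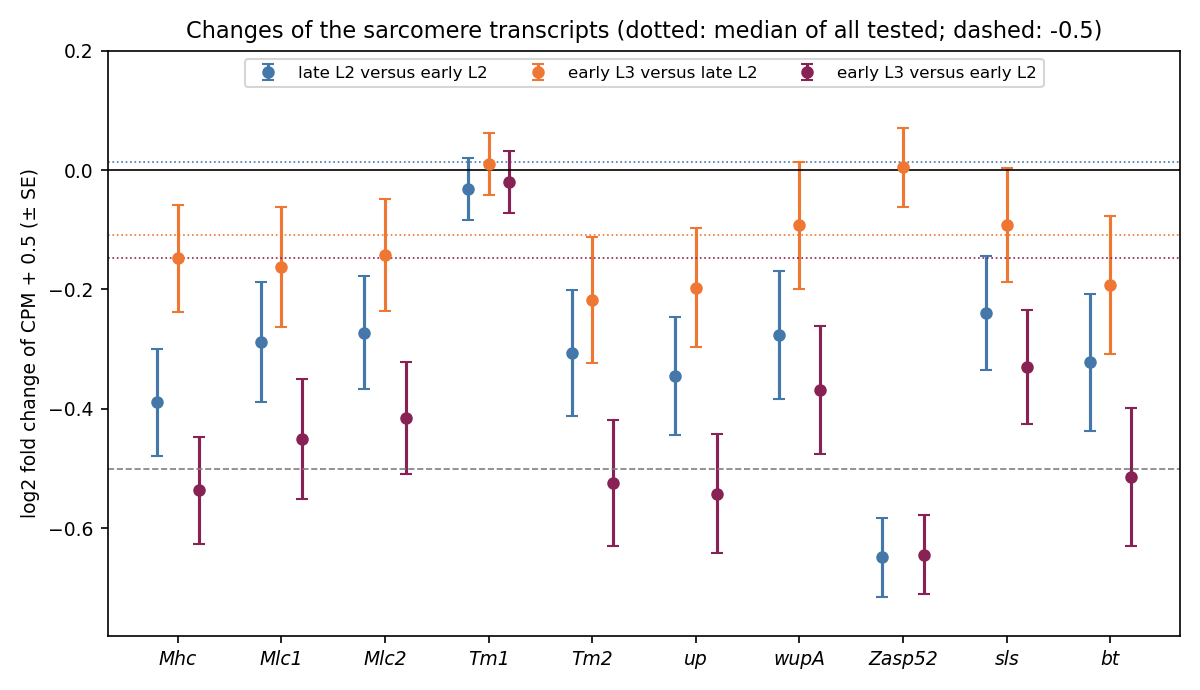
Log2 fold change of CPM + 0.5 (vertical axis, ± SE) for each sarcomere gene in the 3 comparisons, with the median of all 9787 entries as dotted lines and the minimum fold change as a dashed line at -0.5. *Zasp52* (-0.65) is the lowest in late L2 versus early L2, *Tm1* is near 0 throughout, and the changes into early L3 sit around the all-entry median of -0.11 under this scaling by CPM.

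The 10 genes together took 0.565% ± 0.0790 of early L2 library reads, 0.457% ± 0.0261 of those of late L2 and 0.419% ± 0.0277 of those of early L3. Their summed level ranged from 4702 to 6737 CPM, from 4211 to 4836 CPM and from 3874 to 4511 CPM in these stages, so that neighbouring stages overlapped. Proportions within this sum are unchanged by scalings that apply the same factor to all genes of a library. Quantile normalization is not of this kind and can change them. *Tm1* made up 12.7% ± 0.713 of it in the youngest stage, 15.3% ± 1.05 in late L2 and 16.8% ± 0.725 in the oldest. Measured against the other 9 genes, *Tm1* reads amounted to 13.3% to 15.8% at the first stage, to 16.5% to 20.2% in late L2 and to 19.3% to 21.8% at the last, with no overlap between early L2 and the later stages. *Zasp52* contributed 2.08% ± 0.251, 1.61% ± 0.0855 and 1.77% ± 0.171 of the sum, and its amount against the other 9 genes, 1.74% to 2.35% in early L2 and 1.56% to 1.76% in late L2, overlapped slightly.

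Of the remaining genes, *Mlc2* and *wupA* held their proportions closely. *Mlc2*, which binds to the neck of the myosin head, made up 14.4% ± 0.714, 14.6% ± 0.293 and 14.5% ± 0.349 of the summed reads across the 3 stages in order of age. For *wupA* the shares were 4.76% ± 0.402, 4.82% ± 0.152 and 4.93% ± 0.133. *Mhc* went from 31.4% ± 0.901 to 29.4% ± 1.17 and 29.0% ± 0.700, and *up* from 10.0% ± 0.573 to 9.67% ± 0.0266 and 9.22% ± 0.255. The share of *Mhc* did not overlap between early L2 (30.5% to 32.8%) and early L3 (27.9% to 29.6%).

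Per kilobase of the longest annotated transcript, the order of levels in early L2 was *Mlc2* (356 ± 59.6 CPM per kb), *up* (335 ± 61.7), *Mhc* (241 ± 29.3), *Mlc1* (234 ± 43.2), *Tm1* (233 ± 19.96), *wupA* (201 ± 41.6), *Tm2* (172 ± 32.4), *bt* (17.8 ± 3.30), *Zasp52* (15.6 ± 0.696) and *sls* (4.17 ± 0.694). The ranges over replicates overlapped between neighbours in this order, except between *Tm2* and *bt* and between *Zasp52* and *sls*. In early L3 *Mlc2* led (264 ± 15.1), followed by *Tm1* (229 ± 6.87) and *up* (227 ± 13.5), which overlapped each other and lay below it in every library. *Tm1* thus moved up in the order while its own level stood at 233, 228 and 229 CPM per kb from the youngest to the oldest stage. These levels depend on the isoform assumed, since the annotated transcripts of *Zasp52* run from 951 to 7418 bases, those of *Tm1* from 752 to 3054 and those of *sls* from 15263 to 56489.

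Replicates of early L2 varied more in these genes than replicates of later stages. The SD of log2 CPM had a median over the 10 genes of 0.255 among early L2 libraries, 0.0854 among late L2 and 0.0983 among early L3 libraries. Over the 6894 entries with a mean of at least 5 CPM the medians were 0.116, 0.110 and 0.119. *wupA* was the most variable in early L2 (0.307), whereas *Zasp52* had its smallest SD there (0.0647, against 0.139 in late L2).

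The deviations within a stage were shared. In early L2 replicate 1, 9 of 10 genes were above their stage mean, on average by 0.27 on the log2 scale, with *Zasp52* as the exception at -0.01. All 10 were below it in early L2 replicate 2, on average by -0.27, the library with the fewest reads of the 15. Smaller common deviations were present in early L2 replicate 4 (9 of 10 below, mean -0.12), late L2 replicate 4 (9 of 10 below, mean -0.11, with *Tm1* above), early L3 replicate 3 (9 of 10 above, mean 0.10) and early L3 replicate 5 (10 of 10 below, mean -0.11). The cause of these deviations was not tested.

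**Figure D3:**
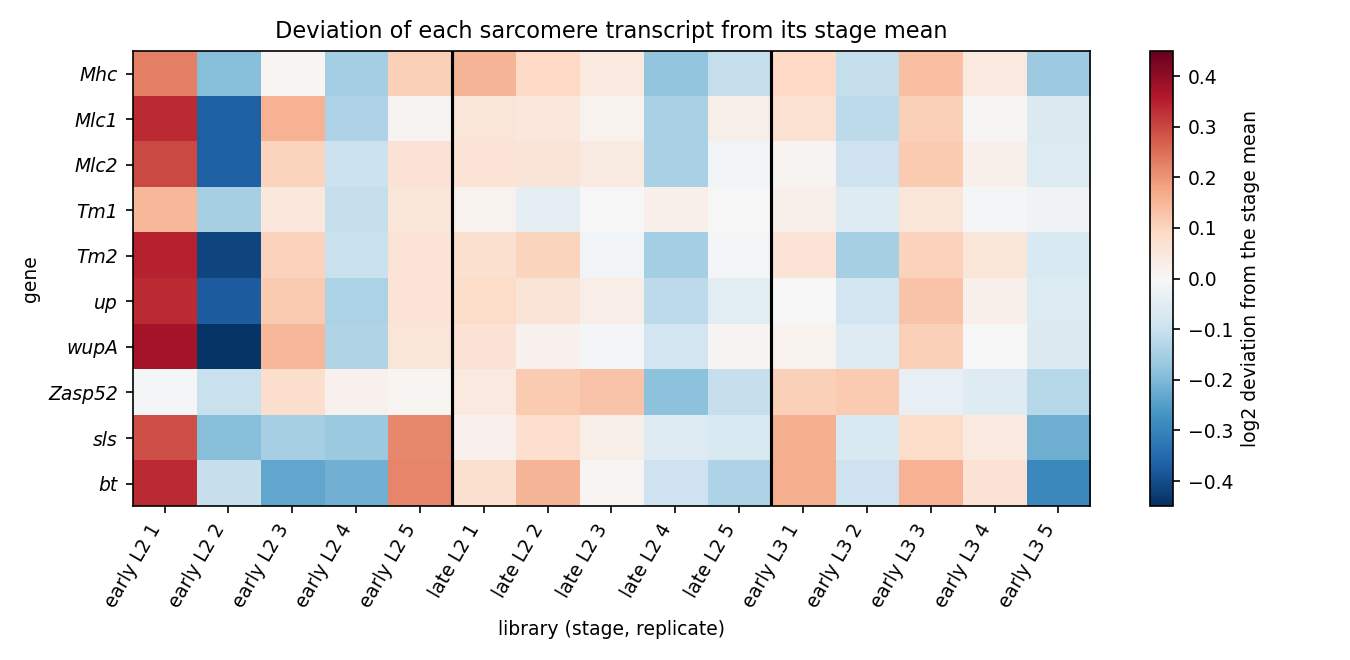
Deviation of each sarcomere gene (rows) from its own stage mean in each of the 15 libraries (columns), as log2(CPM + 0.5); red is above and blue below the mean. Early L2 replicate 1 (mean 0.27) and replicate 2 (mean -0.27) stand out across most rows, with *Zasp52* near 0 in replicate 1.

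With the stage means removed, all 45 pairs of sarcomere genes correlated above 0 over the 15 libraries, with a median Pearson r of 0.77 (Spearman rho 0.69), which is a description since all genes share the same libraries. Over all pairs of the 6894 entries the median r was 0.06, and 1.34% of pairs reached 0.77. *Mlc1*, *Mlc2*, *Tm2*, *up* and *wupA* formed the tightest group, with r from 0.96 to 0.99. *sls* and *bt* correlated at 0.96 with each other but at 0.53 to 0.72 with that group, and *Mhc* lay between them, with r of 0.85 to *sls* and to *bt*. *Zasp52* was the least alike, with r from 0.04 to 0.48 and a median of 0.34. The median over all pairs was 0.59 with early L2 replicates 1 and 2 both left out, a choice made after seeing their values.

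**Figure D4:**
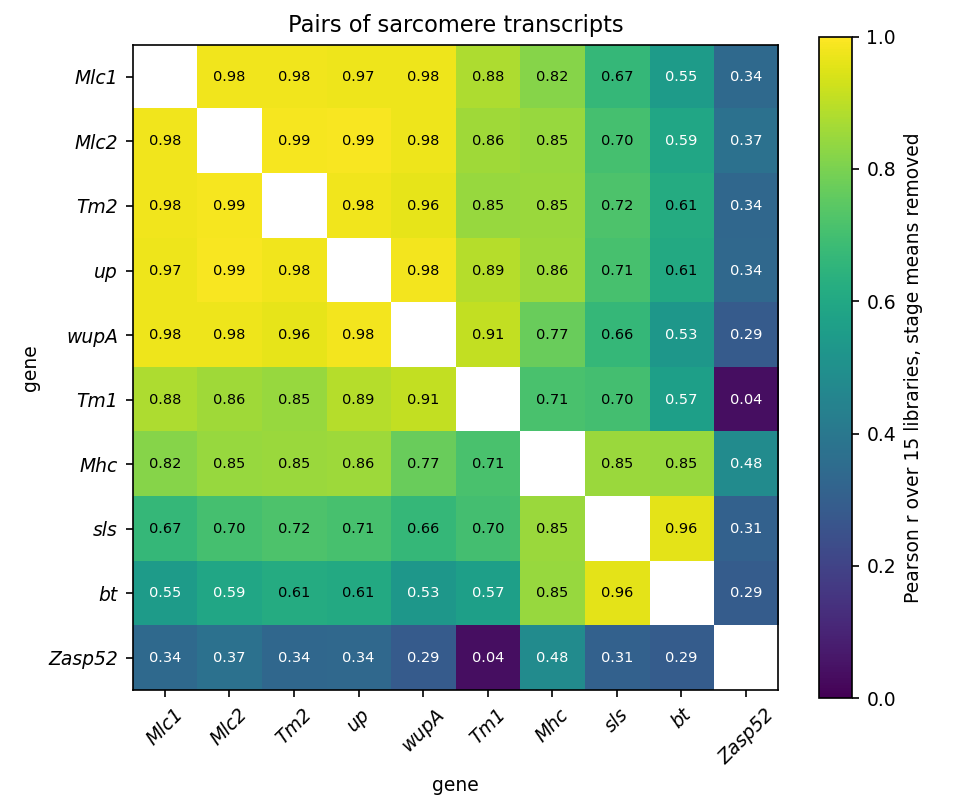
Pearson r of each pair of sarcomere genes over the 15 libraries with stage means removed (colour and printed value). The light chains, *Tm2* and the troponins form a block of r from 0.96 to 0.99, *sls* and *bt* a pair at 0.96, and *Zasp52* has r of at most 0.48.

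The pair *sls* and *bt* also have the longest transcripts of the set, so other long genes were set beside them. In early L2 replicates 1 to 5, *bt* deviated from its stage mean by 0.33, -0.10, -0.23, -0.22 and 0.22 on the log2 scale and *sls* by 0.29, -0.19, -0.15, -0.17 and 0.22. The median deviations of the 9 other genes with a longest transcript over 20 kb were 0.04, 0.09, -0.17, -0.05 and 0.05, and those of the 117 genes of 10 to 20 kb were -0.04, 0.09, -0.12, -0.04 and 0.11. The 985 genes of up to 1 kb had 0.08, -0.05, 0.06, -0.06 and -0.03. Long genes as a class were low in replicate 3 and high in replicate 5, as *sls* and *bt* were. In replicate 2 the signs were opposite, with both long classes at 0.09 and *sls* and *bt* at -0.19 and -0.10. In replicate 1 the class was near its mean while *sls* and *bt* were high with the shorter sarcomere genes. The part of transcript length in the levels of *sls* and *bt* was not tested further.

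**Figure D5:**
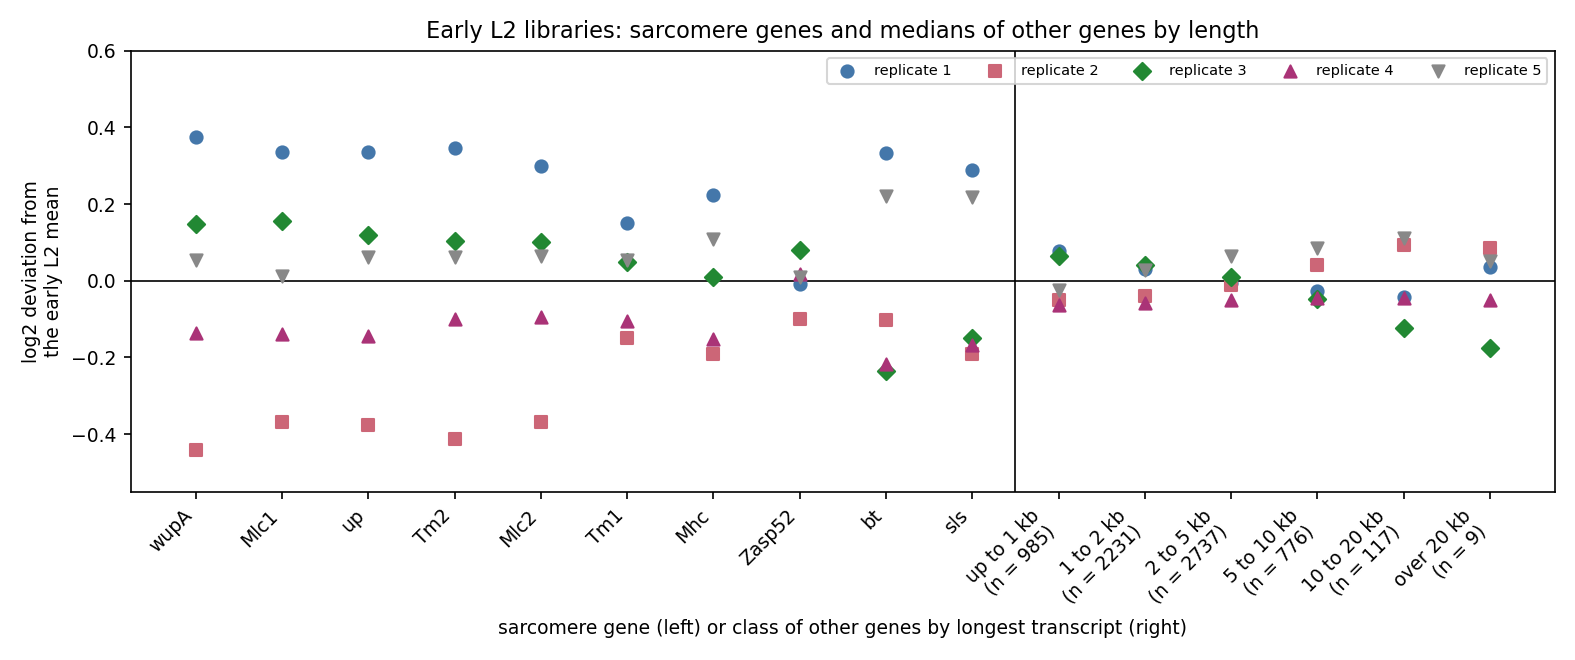
Log2 deviation from the early L2 mean in each early L2 replicate (symbols) for the 10 sarcomere genes ordered by transcript length, and the median deviation of all other genes in 6 classes of transcript length. The single sarcomere genes spread from -0.44 to 0.37, while the class medians stay between -0.17 and 0.11. A median over many genes varies less than a single gene, so the ranges are not like measures.

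The 6884 other entries with a mean of at least 5 CPM were ranked by likeness to the average of the 10 genes over the 15 libraries, with stage means removed. Most of the first 10 were other muscle genes. The closest was *Prm*, paramyosin of the thick filament core (r = 0.98), and the list of 10 went on with *CG43897* (0.96), the Hox gene *abd-A* (0.96), the muscle actin *Act57B* (0.94), the muscle LIM protein *Mlp60A* (0.94), the thick filament gene *Mf* (0.94), alpha-actinin *Actn* (0.94), troponin C *TpnC47D* (0.93), *CG3961* (0.93) and *CG31821* (0.93). Of these, 6 belonged to a list of other sarcomere genes. In all, 59 entries, or 0.857%, reached an r of 0.8. Among them were 10 of the other sarcomere genes, 1 gene of calcium handling, 2 of integrin attachment and 2 of visceral muscle identity, from the lists below. The rest were in none of the lists. Likeness between libraries did not mean the same course between stages. *abd-A* fell in both intervals (12.6 ± 4.13, 6.96 ± 1.22 and 4.39 ± 0.513 CPM), and *CG31821* rose into early L3 (62.3 ± 3.35 CPM before and 91.6 ± 3.08 CPM after, or 0.55 on the log2 scale, adjusted p = 6.97e-05).

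Of the other sarcomere genes, 22 were tested. In late L2 versus early L2, 3 of these genes fell, where 6.51% of all entries did, and their median was -0.22 on the log2 scale beside 0.01 over all entries. Those that fell were *Mf* (-0.53, adjusted p = 0.000279), *Strn-Mlck*, related to myosin light chain kinase (-0.67, adjusted p = 0.000265), and *sals*, which acts on thin filament length (-0.59, adjusted p = 0.00364). Between late L2 and early L3, 2 rose, the actin *Act87E* (0.55, adjusted p = 0.00131) and the LIM-SH3 protein *Lasp* (0.52, adjusted p = 8.53e-05), where 6.45% of all entries rose, with a median of -0.11 over the list and the same value over all entries. *Act57B*, the most abundant of this list by CPM, stood at 2381 ± 389, 1926 ± 213 and 1707 ± 109 CPM, given here and for the genes that follow from the youngest to the oldest stage. Paramyosin stood at 489 ± 69.1, 376 ± 24.5 and 342 ± 22.4 CPM.

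Genes for calcium handling fell in part. In late L2 versus early L2, 3 of 7 fell, where 6.51% of all entries did. These were the calcium channel subunit *Ca-alpha1D* (-0.68, adjusted p = 0.000899), the SERCA inhibitor *SclB* (-0.59, adjusted p = 0.000707) and the junctophilin *jp* (-0.67, adjusted p = 0.000146). *Ca-alpha1D* (-0.57, adjusted p = 0.00101) and the ryanodine receptor *RyR* (-0.51, adjusted p = 0.00147) then fell between late L2 and early L3, where 18.7% of all entries fell. The calcium pump *SERCA* stood at 413 ± 32.9, 400.1 ± 29.6 and 364 ± 21.5 CPM and passed neither test. Of 12 genes of integrin attachment, which anchors fibres to the matrix, the tensin *by* (-0.60, adjusted p = 2.12e-05) and the integrin subunit *if* (-0.57, adjusted p = 0.000137) fell during L2. The share of all entries that fell was 6.51%, and the median of the 12 was -0.16. Into early L3, 0 of the 12 rose or fell, where 6.45% of all entries rose and 18.7% fell. Short of the minimum fold change, the integrin subunit *mys* was higher (0.32, adjusted p = 6.54e-05). Lower in the same way were *mew* (-0.498, adjusted p = 9.2e-06), *by* (-0.22, adjusted p = 0.0151) and *stck* (-0.11, adjusted p = 0.0435).

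Genes of visceral muscle identity fell in part during L2. *bin*, a FoxF factor of the visceral mesoderm, fell in both intervals, from 5.31 ± 0.671 to 2.33 ± 0.298 and 1.41 ± 0.301 CPM. *Hand* (-0.69, adjusted p = 0.00146), *org-1* (-0.52, adjusted p = 0.0187) and *bap* (-0.56, adjusted p = 0.0268) fell during L2, which made 4 of 14, where 6.51% of all entries fell. *bap* stood at 0.654 ± 0.272, 0.280 ± 0.144 and 0.153 ± 0.0892 CPM, near or under the filter of 0.5 CPM. The more abundant genes of the list did not follow these. The muscle regulator *Mef2* stood at 66.5 ± 4.07, 63.2 ± 1.40 and 73.1 ± 6.86 CPM. It was higher in early L3 than in late L2 (0.21, adjusted p = 0.00839), under the minimum fold change. *Fas3* stood at 53.6 ± 4.35, 60.7 ± 6.35 and 61.9 ± 2.65 CPM and was higher over the full span (0.21, adjusted p = 0.0163), again short of that minimum. Among 9 basement membrane genes, whose products coat the muscle and the epithelium, *vkg*, *Ndg*, *SPARC* and *Ppn* fell during L2, where 6.51% of all entries fell. *LanB2* and *trol* fell into early L3, where 18.7% of all entries fell. All 9 fell over the full span, where 24.3% of all entries did.

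Markers of the epithelium and of other tissues moved in their own ways beside these results, and their part in them was not tested. Of 10 enterocyte markers, the trypsin gene *alphaTry* fell and the amylase gene *Amy-p* rose in both intervals, *Npc2f* rose into early L3, and the summed level of the list ranged from 19259 to 25464 CPM at early L2, from 15498 to 20676 CPM at late L2 and from 16932 to 22845 CPM at early L3. *Myo61F*, a brush border myosin, stood at 1424 ± 54.1, 1484 ± 51.1 and 1477 ± 94.9 CPM and passed neither test. Enteroendocrine markers fell in 7 of 10 cases during L2, where 6.51% of all entries fell, including *Dh31* (-0.86, adjusted p = 0.000109), *Tk* (-0.55, adjusted p = 0.000213) and *Orcokinin* (-0.77, adjusted p = 0.00029). Into early L3, 2 of 10 fell, where 18.7% of all entries did. Their summed level went from 218 to 261 CPM in early L2 to 154 to 199 CPM in late L2 and 156 to 162 CPM in early L3. Progenitor markers summed to at most 12.7 CPM, and *esg* and *Sox21a* rose during L2.

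Hemocyte markers ranged in sum from 105 to 126 CPM in early L2, 176 to 242 CPM in late L2 and 297 to 352 CPM in early L3, most of it the scavenger receptor *crq* (111 ± 9.04, 191 ± 26.4 and 311 ± 21.3 CPM). *crq* rose in both intervals. The defining hemocyte gene *Hml* stood at 0.0772 ± 0.0439, 0.225 ± 0.119 and 0.674 ± 0.459 CPM and rose into early L3 (0.63, adjusted p = 0.0151), and *NimC1* rose during L2 (0.86, adjusted p = 0.00474) at no more than 0.526 CPM on average. Not all of the list rose. *srp* stood at 4.15 ± 0.629, 3.12 ± 0.362 and 2.55 ± 0.473 CPM and fell over the full span (-0.61, adjusted p = 0.000495). *Pxn* stood at 3.63 ± 0.198, 3.58 ± 0.977 and 4.29 ± 1.28 CPM and passed no test. Tracheal markers summed to 69.3 to 128 CPM in early L2, 82.0 to 173 CPM in late L2 and 42.2 to 62.5 CPM in early L3. Of the 8, 6 fell and *btl* rose into early L3, where 18.7% of all entries fell and 6.45% rose. Markers of neurons and glia summed to between 8.94 and 21.5 CPM in all libraries, and *Syt1* and *brp* fell during L2. Fat body markers summed to 6.80 to 40.7 CPM in early L2, 3.50 to 269 CPM in late L2 and 45.5 to 308 CPM in early L3. Of these, *Lsp1alpha* and *Lsp2* had 0 reads in all 5 early L2 libraries, which allows up to 0.125 CPM in the smallest of them, and *Lsp1gamma* rose in both intervals. The few markers of the foregut, hindgut and Malpighian tubules in the table summed to at most 12.6 CPM, and *Gld* fell into early L3.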

How the data were processed

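Polyadenylated RNA of 15 midgut libraries was sequenced with a stranded kit. The authors deposited the values as CPM, reads of each entry scaled to a common library total, for 12133 entries. Tools named in the submitters' processing notes are STAR 2.7.10a, Salmon 1.5.2, Trim Galore 0.6.7, MultiQC 1.11, FastQC, Picard and DESeq2, with genome build BDGP6; the role of each, the annotation release and whether counting used strand are not given in the sources used here. A second table holds the authors' log2 fold changes and adjusted p-values, which were not used.

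Groups followed the sample labels. log2(CPM + 0.5) of the 9787 entries that reached 0.5 CPM in 1 or more libraries was fitted with limma 3.58.1 (R 4.3.3, intensity trend, 3 stage means in 1 fit), with Benjamini-Hochberg adjustment over all entries of a contrast, and the fit was tested on simulated data. Whole reads were recovered from CPM (100% of 166854 values within 0.001) and tested with edgeR 4.0.16, which called 1024, 2465 and 3391 entries during L2, between late L2 and early L3 and over the full span, and with DESeq2 1.42.0. Other alternatives were pseudocounts, filters, scalings, variance models, a replicate block, fold minimums and libraries left out. Symbols and coordinates came from Ensembl release 115, and 119 of 131 genes of the marker lists matched the table, the others being not analysed here. The genes and lists were chosen with earlier results of these data known. Named were all 10 sarcomere genes, up to 4 called genes per list and interval with the smallest adjusted p, leading markers by CPM, and the 10 most similar entries. No sequence is shown.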

Additional observations from a re-analysis of the deposited data

Results flagged for a closer look

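*Mlc1* in late L2 replicate 4, at 241 CPM, stood apart from the other 4 late L2 libraries, which lay between 269.8 and 277.6 CPM. The gap took 0.787 of the range of the 5 libraries, above the critical value of 0.71. It was the only such case among 30 groups of 5 examined, and chance alone gives about 1 in 20.

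*Zasp52* changed differently in the 2 intervals: its change into early L3 exceeded its change during L2 by 0.65 on the log2 scale (limma, adjusted p = 0.000593). Late L2 libraries enter both intervals.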

How the results depend on the processing

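The count of sarcomere genes that fell between early L2 and early L3, 5 by CPM, was 0 with median-ratio scaling, TMM scaling, edgeR and DESeq2 on recovered reads, 6 with quantile normalization, 9 with no minimum fold change and 0 with a minimum log2 fold change of 1. Of the 9787 entries tested, 2378 fell over this span by CPM, 1809 with median-ratio scaling and 1664 with quantile normalization. With single libraries left out the count of sarcomere genes ranged from 1 to 7. Without both early L2 replicates 1 and 2, a choice made after seeing the data, it was 4. The count for late L2 versus early L2, 1 by CPM, was 6 with no minimum fold change and 0 with a minimum of 1, and 1 with any library left out. The count for early L3 versus late L2 was 0 under all alternatives run. The median r of the pairs was 0.59 without early L2 replicates 1 and 2 and ranged from 0.68 to 0.83 with single libraries left out.

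The difference between the changes of *Zasp52* ran from 0.53 to 0.80, with adjusted p from 2.55e-11 to 0.0026. That of *Mhc* ran from 0.13 to 0.39, with adjusted p from 0.0183 to 0.578. Over all entries the calls during L2, between late L2 and early L3 and over the full span were 968, 2460 and 3343, against 506, 1598 and 2220 with a pseudocount of 4, 2597, 5288 and 6361 with no minimum fold change, and 209, 846 and 1253 with a minimum log2 fold change of 1. No pairing of libraries by replicate number was visible, with correlations of same-numbered deviations from -0.18 to 0.21. Differently numbered libraries were not set beside them, so these values cannot decide whether the numbers pair libraries. A replicate block gave 1, 0 and 5 sarcomere genes and 992, 2465 and 3352 entries in these comparisons.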
